A study of Mus musculus with 8 samples.

Results

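The tumour suppressor p53 and the regulators of apoptosis around it were followed in a transcriptome-wide map of N6-methyladenosine (m6A) in mouse liver. The set holds 10 genes chosen by symbol, namely *Trp53*, *Mdm2*, *Mdm4*, *Cdkn1a*, *Fas*, *Bax*, *Bbc3*, *Bcl2l11*, *Bcl2l1* and *Mcl1*. Of these, 9 were among the 11558 genes on which an m6A peak was called. They held 8 of the 15635 peaks of Wtap flox/flox livers and 13 of the 19185 peaks of Wtap-HKO livers, so that the list of all genes was longer in Wtap-HKO too. *Fas* and *Bcl2l11* showed the lowest ratios of enrichment in Wtap-HKO over Wtap flox/flox livers. *Cdkn1a* and *Bax* had peaks in Wtap-HKO livers alone, and *Mdm2* was the 1 gene of the set with a peak in the list of differential peaks. Both are common over all genes. Of the 11558 genes, 9020 had a peak in Wtap flox/flox livers, and the rest had theirs in Wtap-HKO livers alone. The list of differential peaks held 3227 genes.

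p53 is a transcription factor that is stabilised by DNA damage and other stress and then switches on genes that halt the cell cycle or start cell death. MDM2 and MDM4 hold it in check, and *Mdm2* is itself a p53 target. The mitochondrial arm of apoptosis is decided by the balance between BCL-2 family proteins that protect the outer mitochondrial membrane and those that breach it, while the death receptor arm starts from FAS at the cell surface, to which hepatocytes are known to be sensitive. WTAP is the adaptor of the METTL3-METTL14 methyltransferase that writes m6A on mRNA, most often near stop codons and in long exons.

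All livers came from mice labelled C57BL/6 (C57BL/6J in the study's methods) at 8 weeks of age on normal chow. Wtap flox/flox mice (flox/flox below) carry floxed *Wtap* without a Cre, and Wtap-HKO mice (HKO below) carry the same floxed *Wtap* together with Alb-Cre, a Cre driven by the albumin promoter that is active in hepatocytes, so that the other cells of the liver keep *Wtap*. Each genotype had 2 libraries of the RNA bound by an m6A antibody (IP) and 2 of the RNA before the pull-down (input), with several mice pooled per replicate. The deposited lists combine the replicates. This leaves no SD, no test and no depth for any value below, and each difference is a description of 2 combined lists. Fold enrichment is the ratio of IP over input within a peak. A lower ratio can come from less IP or from more input, and fewer cells of a type cannot be told apart from less m6A per cell. *Wtap* itself had 3 sites in both lists, at log2 ratios of -0.85, -0.01 and 1.23, so the peak lists do not check the deletion. The first of these sites overlapped the list of differential peaks. In the same order, they covered 748, 360 and 240 nt in flox/flox and 569, 450 and 210 nt in HKO.

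Peaks of both genotypes that shared at least 1 exonic base of a gene were joined into 1 site. Over all genes, 21673 sites resulted, and the set of 10 genes held 13 of them. Coordinates are given on GRCm38. Because the lists hold called peaks alone, a site found in 1 genotype had no called peak in the other, which is not an enrichment of 0.

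No peak of *Trp53* (chr11:69580348-69591873), which encodes p53 itself, was called in either genotype, and its span held no peak of another gene in either list. The mRNA of its main negative regulator carried a peak in both. *Mdm2* encodes the ubiquitin ligase that marks p53 for degradation, and its peak (ENSMUSG00000020184, chr10:117690071-117691177, minus strand) covered the same 748 exonic nt in both lists. The level of enrichment there was 13.5-fold in flox/flox and 8.31-fold in HKO, a log2 ratio of -0.70. The site lay 1196 nt from the 3′ end of the gene and overlapped a peak of the differential list, which over both genotypes had a fold enrichment of 10.1. Among the 13 sites of the set it was the 1 that did, whereas 18.2% of the sites of all genes overlapped that list. Sites that did so with lower enrichment in HKO, or with a peak in flox/flox alone, made up 10.7% of all sites, and those in the other direction 7.48%.

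*Mdm4* encodes a relative of MDM2 that binds p53 and blocks its transcriptional activity. Its peak (ENSMUSG00000054387, chr1:132991792-132994518, minus strand) had identical bounds and 450 exonic nt in both genotypes. Enrichment was 10.2-fold in flox/flox and 13.3-fold in HKO, a log2 ratio of 0.38. Of the 7 sites of the set found in both genotypes, it was the 1 site with the higher value in HKO. The 2 inhibitors of p53 lay on opposite sides of a ratio of 1, at percentiles 21.8 (*Mdm2*) and 64.8 (*Mdm4*) of the ratios of all shared sites. Log10 false discovery rates in flox/flox and HKO were -217 and -194 for *Mdm2*, and -129 and -171 for *Mdm4*. These rates score IP over input within a genotype and do not measure the difference between genotypes.

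*Cdkn1a* encodes p21, the inhibitor of cyclin-dependent kinases through which p53 halts the cell cycle. No peak was called in flox/flox livers. In HKO livers 1 peak was called (ENSMUSG00000023067, chr17:29091009-29098290, plus strand) with a fold enrichment of 18.5, which placed it at percentile 85.6 of that list, and a log10 false discovery rate of -138. It was the highest enrichment of the set in HKO livers. The peak joined 3 exonic blocks of 93, 90 and 84 nt, and it was the 1 peak of the set that reached the RefSeq windows around transcript starts. RefSeq places 2 transcript starts in the gene, at 29090979 and 29093769. The first block began 30 nt after the former and the second began 3 nt after the latter, so reads of transcripts from either start could contribute. The stretches where the 2 blocks begin are shown because they are the exact places at which this peak meets the starts, with the bases inside the peak in capitals (GRCm38.p6, chr17:29090999-29091028 and chr17:29093769-29093798, plus strand, 5′ to 3′).
Cdkn1a transcript start 1: tgatgataccCAACTACCAGCTGTGGGGTG
Cdkn1a transcript start 2: tgcAGCAGCCGAGAGGTGTGAGCCGCCGCG

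The first stretch holds 20 bases of the peak and the second 27. The letters GGACT, a frequent form of the m6A consensus in DNA letters, were searched on the transcribed strand in the first 50 bases after each start. They occur in 0 of the 2 *Cdkn1a* windows and in 5.76% of 32851 windows of all genes (1891 windows). At that share, 0 of 2 windows cannot set *Cdkn1a* apart from other genes. This match covers the first 50 bases only, not the rest of the peak. For HKO livers as a whole, the study describes peaks spread over the 5′ UTR and stop codon and reports no canonical GGACU motif.

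*Fas* encodes the death receptor that recruits caspase-8 after binding FAS ligand, and it is a p53 target. Its site (ENSMUSG00000024778, chr19:34327091-34327770, plus strand) ended 5 nt before the 3′ end of the gene. In flox/flox livers 1 peak covered 680 nt at a fold enrichment of 19.3. In HKO livers 2 shorter peaks of 266 and 178 nt lay inside it, with fold enrichments of 2.47 and 3.88. The mean weighted by length was 3.04, 6.36-fold lower than in flox/flox, a log2 ratio of -2.67. The site stood at percentile 92.0 of the flox/flox list and at percentile 16.8 of the HKO list, and its ratio lay at percentile 0.330 among all sites found in both genotypes. The log10 false discovery rates were -42.4 for the flox/flox peak and -25.8 and -24.5 for the 2 HKO peaks. The site was not in the differential list, although its ratio was further from 1 than that of *Mdm2*.

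**Figure D1:**
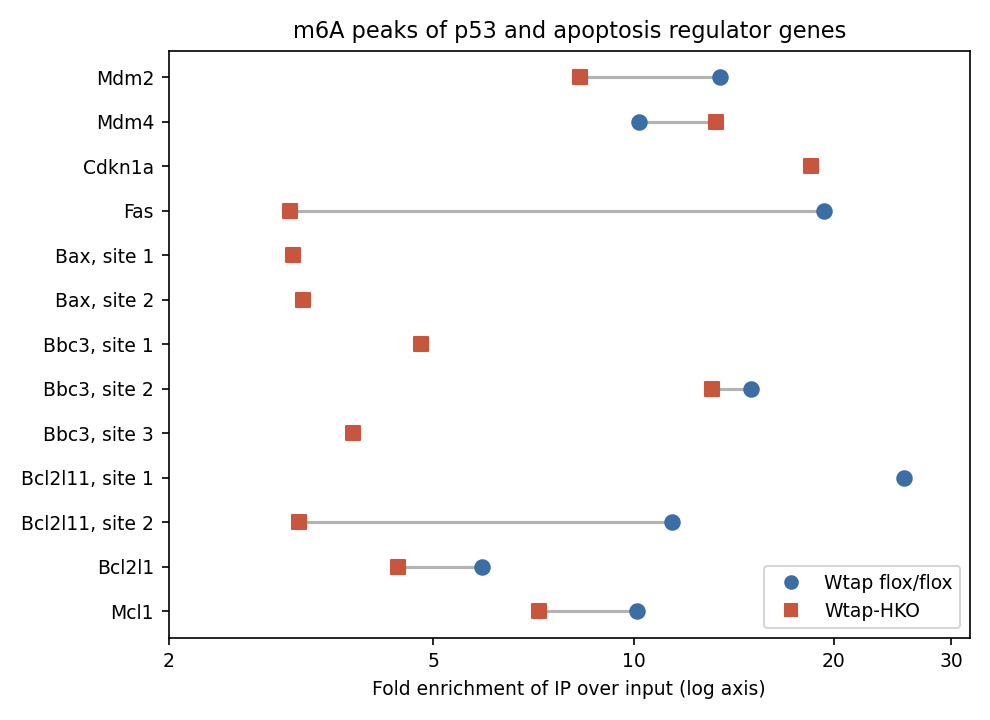
Fold enrichment of IP over input (log axis) at the 13 sites of the 9 genes with a peak. Circles are the authors' combined values for flox/flox and squares those for HKO, without error bars, and a grey line joins the values of a site found in both. The lines of *Fas* (19.3 to 3.04) and *Bcl2l11* site 2 (11.4 to 3.14) are the longest, and *Mdm4* is the one line that runs towards a higher value in HKO.

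Among the proapoptotic genes of the BCL-2 family, *Bax* and *Bbc3* had sites in HKO livers that were not called in flox/flox livers. BAX forms the pores in the outer mitochondrial membrane. *Bax* had no peak in flox/flox livers and 2 in HKO livers, with fold enrichments of 3.08 (ENSMUSG00000003873, chr7:45466029-45466304, minus strand, 180 exonic nt) and 3.18 (chr7:45466601-45466779, 179 nt). Both were low in their list, at percentiles 17.3 and 18.8, with log10 false discovery rates of -72 and -23.2. The first shared 147 of its 180 nt with a peak assigned to *Gm45808*, a gene on the same strand, in the same list (fold enrichment 3.48), so the reads there cannot be told apart between the 2 genes. The second lay 119 nt from the transcript start of *Bax* and shared no base with a peak of another gene, and neither did any other peak of the 10 genes in its list.

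*Bbc3* encodes PUMA, a BH3-only protein that p53 induces and that releases BAX from its inhibitors. Its main site (ENSMUSG00000002083, chr7:16313649-16317727, plus strand) was found in both genotypes, at a fold enrichment of 15 over 629 nt in flox/flox and 13.1 over 779 nt in HKO, a log2 ratio of -0.20 and the one closest to 0 in the set. In HKO livers it was flanked by 2 further peaks. One of 121 nt lay upstream, 126 nt from a transcript start (chr7:16309709-16309829, fold enrichment 4.79, log10 false discovery rate -15.5). The other, of 120 nt, lay downstream, 249 nt from the 3′ end of the gene (chr7:16317966-16318085, fold enrichment 3.79, log10 false discovery rate -5.81). The covered length of *Bbc3* was thus 629 nt in flox/flox and 1020 nt in HKO, while the enrichment at its main site differed by 1.15-fold.

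*Bcl2l11* encodes BIM, the BH3-only protein that binds all protective members of the family. It was the 1 gene of the set with a site in flox/flox livers alone. That site (ENSMUSG00000027381, chr2:128131339-128131459, plus strand) covered 121 nt with a fold enrichment of 25.5, the highest of the set in either genotype, and a log10 false discovery rate of -5.85. The second site (chr2:128158263-128158533) had a fold enrichment of 11.4 over 211 nt in flox/flox and 3.14 over 271 nt in HKO. Enrichment at this site was 3.63-fold lower in HKO, a log2 ratio of -1.86. The site stood at percentile 80.5 of the flox/flox list and 18.2 of the HKO list. These peaks had false discovery rates nearer to the limit of calling than most of the set, with log10 values of -11.3 in flox/flox and -4.95 in HKO at the second site. Both sites of *Bcl2l11* were outside the differential list, and neither was left when peaks were limited to a false discovery rate under 1e-20.

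The protective members held long peaks that kept their place in both genotypes. *Bcl2l1* encodes BCL-XL, on which hepatocyte survival depends. Its peak (ENSMUSG00000007659, chr2:152829449-152830264, minus strand) covered 690 nt at a fold enrichment of 5.92 in flox/flox and 750 nt at 4.43 in HKO, a log2 ratio of -0.42. *Mcl1* encodes a short-lived protective protein that is likewise needed in hepatocytes. Its peak (ENSMUSG00000038612, chr3:95658788-95661228, plus strand) was the longest of the set, with 3 exonic blocks and 1440 nt at a fold enrichment of 10.1 in flox/flox and 1470 nt at 7.20 in HKO, a log2 ratio of -0.49. All 1440 nt of the flox/flox peak of *Mcl1*, and all 690 nt of that of *Bcl2l1*, were covered in HKO too.

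**Figure D2:**
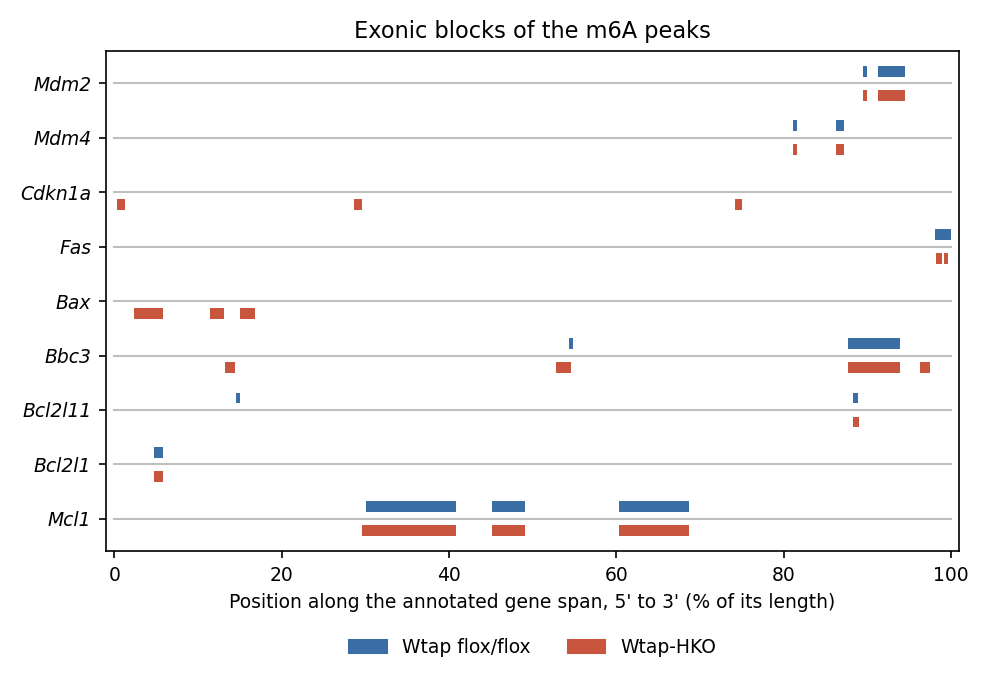
Exonic blocks of the peaks along the annotated span of each gene, from its 5′ end (0) to its 3′ end (100, in % of the span with introns); upper bars are flox/flox and lower bars HKO. Very short blocks are widened to stay visible. The blocks of *Mdm2*, *Mdm4*, *Bcl2l1* and *Mcl1* stand in pairs, while *Cdkn1a*, *Bax* and the outer blocks of *Bbc3* appear in HKO alone.

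Of the 13 sites, 7 were found in both genotypes (53.8%), 5 in HKO alone and 1 in flox/flox alone. Over all genes, 54.5% were found in both, 31.1% in HKO alone and 14.3% in flox/flox alone, beside 38.5% and 7.69% of the set for the last 2, so the set was split much like all sites. Enrichment was lower in HKO at 6 of 7 shared sites of the set, beside 49.7% of the 11822 shared sites of all genes. The median log2 ratio was -0.49 in the set and 0.00 over all shared sites, whose middle range ran from -0.60 to 0.67. The median fold enrichment of the shared sites of the set was 11.4 in flox/flox and 7.20 in HKO, against 6.04 and 5.92 over all genes. The ratios of *Mdm4*, *Bbc3*, *Bcl2l1*, *Mcl1* and *Mdm2* were between percentiles 21.8 and 64.8 of all ratios. *Bcl2l11*, at percentile 2.03, and *Fas* lay below them.

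**Figure D3:**
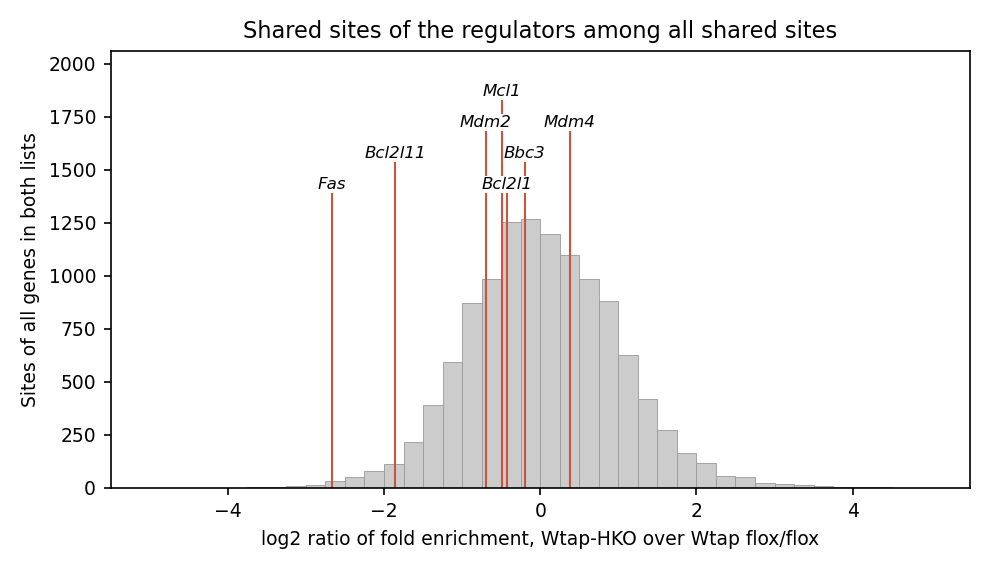
Log2 ratio of fold enrichment, HKO over flox/flox, for the 11822 sites of all genes found in both lists (grey bars, number of sites per bin), with the 7 shared sites of the set as red lines. *Fas* (-2.67) and *Bcl2l11* (-1.86) lie in the lower tail and the other lines from -0.70 to 0.38 lie within the bulk.

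By position, the sites found in HKO alone lay nearer to transcript starts than the shared ones, in the set and over all genes. Of the 5 in the set, 3 (*Cdkn1a*, *Bax* site 2 and *Bbc3* site 1) were within 200 nt of a RefSeq transcript start, beside 36.4% of the 4712 such sites of all genes with a RefSeq start. Of the 7 shared sites, 1 was (*Mcl1*, 67 nt away), beside 18.3% of 8677. Measured from the 5′ end of the annotated gene span, 2 of 5 and 0 of 7 were within 200 nt, beside 27.2% and 13.8% over all genes. *Mdm2*, *Mdm4*, *Fas*, *Bcl2l11* site 2 and *Bbc3* site 2 had their midpoints between 73.4% and 99.1% of the span, whereas that of *Bcl2l1* stood at 5.26% of its long span.

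Genes around the 10 were then read in 5 lists with 104 genes in all, of which 81 had a site. No list was tested. The peaks of a shared site often differed in length between genotypes, so a ratio need not compare equal stretches. For comparison, the median log2 ratio over all shared sites was 0.00 and 49.7% of them had the lower value in HKO. The p53 regulators (enzymes and partners that act on p53, and its relatives) were the most even. Of 22 genes, 15 had 35 sites, 26 of them in both genotypes, 13 lower and 13 higher in HKO, with a median log2 ratio of 0.00. None of the 35 sites overlapped the differential list (18.2% over all genes). The values furthest from 0 were those of *Hipk2*, a kinase of p53 (7.22-fold in flox/flox, 19-fold in HKO), and of *Trp53bp1*, a DNA damage response protein (10.5-fold and 3.73-fold). The acetylase gene *Ep300* (2.75 and 5.35) and the ubiquitin ligase gene *Cop1* (6.33 and 2.96) came next in their direction, and the highest site in HKO alone was a second one of *Hipk2* (10.7). *Wrap53*, the neighbour of *Trp53*, had a site in flox/flox alone (5.02-fold).

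Of 30 p53 target genes, 23 had 43 sites. Of the 22 shared sites, 14 (63.6%, beside 49.7% of all shared sites) had a lower and 8 a higher fold enrichment in HKO, with a median log2 ratio of -0.47. Of the 43 sites, 10 (23.3%, beside 18.2% of all sites) in 9 genes were in the differential list. Among the 43 sites, 9 were in that list and lower in HKO or found in flox/flox alone, beside 10.7% of all sites. In the other direction it was 1 of the 43, beside 7.48% of all sites. Over all genes, 2329 of the 3952 listed sites took the former direction and 1622 the latter. *Btg2*, an antiproliferative gene, was enriched 12-fold in flox/flox and 2.34-fold in HKO at its listed site. *Gdf15*, which encodes a stress-induced hormone, had 7.57 and 1.64. The same direction was seen for *Sesn2*, a stress-responsive inhibitor of mTORC1 (12.4 and 5.83), and *Tigar*, a regulator of glycolysis (14.1 and 5.44). *Aen* (5.24 and 1.77 at one site, 5.45 in flox/flox alone at the other), *Fdxr* (5.12 and 2.80), *Trp53inp1* (5.42 and 2.99) and *Perp* (2.17 in flox/flox alone) completed the 8 genes with a listed site of that direction. Some of these genes had another shared site outside the list. That site was higher in HKO for *Btg2* (3.23 and 4.91) and *Fdxr* (5.80 and 6.63). It was lower for *Trp53inp1* (11.4 and 6.29) and *Sesn2* (4.57 and 2.12). *Rps27l*, which encodes a ribosomal protein, had a site of the differential list in HKO alone (5.52-fold). Outside that list, *Gadd45a* (8.78 and 27.6) and *Gadd45b* (4.10 and 8.57), growth arrest genes, had the largest ratios above 1, and *Dram1* had the highest fold enrichment among sites in HKO alone (19). The highest in flox/flox alone was that of *Pidd1* (30.7, over 91 nt).

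The other members of the BCL-2 family had slightly more sites in HKO alone than in all other classes together. Of 18 genes, 14 had 27 sites, 14 of them (51.9%) in HKO alone, beside 31.1% of all sites. Most of these 14 sites lay in only *Bcl2*, *Bcl2a1a* and *Bcl2a1d*. The median log2 ratio of their 12 shared sites was 0.41, opposite in sign to that of the 10 genes. *Bcl2*, the founding protective member, had a shared site at a fold enrichment of 14.1 over 91 nt in flox/flox and 41.6 over 390 nt in HKO. A neighbouring site of *Bcl2* was found in HKO alone at 136. *Bad*, a BH3-only gene, had 5.45 and 18.7 at the shared site with the largest ratio. *Bid*, whose protein links death receptors to mitochondria, was the 1 gene of the list with a site among the differential peaks and had 12.4 in flox/flox and 6.45 in HKO. *Bcl2l14* (8.34 and 5.81) followed it among the ratios below 1, and *Bad* held the 1 site of the list in flox/flox alone (2.77). *Bcl2a1a*, *Bcl2a1b* and *Bcl2a1d* are near-identical copies, so reads may be divided among them.

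In the death receptor pathway downstream and beside *Fas*, all 16 genes had a site, 32 in all, and the median log2 ratio of the 23 shared sites was 0.16. The differential list held 6 of the 32 sites (18.8%, near the 18.2% of all sites) in 5 genes. Over all genes, 1622 of the 3952 sites in that list were higher in HKO or found there alone, which is 7.48% of all sites. Among the 32 sites here, 5 were listed with this direction. *Fasl*, the ligand of FAS, had 2 of these, both in HKO alone, at fold enrichments of 36.1 and 28. *Traf1*, an adaptor of tumour necrosis factor receptors, had 19.3 over 151 nt in flox/flox and 107 over 720 nt in HKO. *Tnfrsf21*, a death receptor, had 5.78 and 17.8, and *Cflar*, the inhibitor of caspase-8, 1.59 and 2.57, each at its listed site. The other shared site of *Cflar* had 17.1 and 12.1, and that of *Tnfrsf21* had 19.3 and 20.8. *Ripk1*, a kinase of necroptosis and survival signalling, held sites of both directions, with 9.71 and 4.24 at the one in the differential list and 2.96 and 12.2 at another. *Ripk3*, its partner in necroptosis, had 16.7 and 6.32. *Tnf* had a site in HKO alone at 43.4, and *Birc2*, a ubiquitin ligase gene, held the 1 site in flox/flox alone (2.12). Fold enrichment at the *Fas* site, which was outside the differential list, was lower in HKO livers, and the *Fasl* peaks were called there alone. A link between these observations was not tested.

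Among caspases and the apoptosome, 13 of 18 genes had 17 sites, with a median log2 ratio of 0.03 over 7 shared sites. Sites of the differential list were among them. *Xiap*, the caspase inhibitor, had 14.3 in flox/flox and 7.30 in HKO. *Casp9*, the initiator of the mitochondrial arm, had a listed site in flox/flox alone (6). *Aifm1*, a mitochondrial flavoprotein, had one in HKO alone (5.80). *Casp9* also had a site in HKO alone at 29.8, outside the list. Among the shared sites with a higher value in HKO, the largest ratios were those of *Endog* (2.40 and 6.74) and *Htra2* (4.88 and 6.38), a nuclease and a protease released from mitochondria. Among those with a lower value, the ratios furthest below 1 were the 2 of *Dffa*, the inhibitor of an apoptotic nuclease (8.70 and 4.25, and 8.72 and 4.30). Over the 5 lists together the median log2 ratio was 0.03, and 13.6% of 154 sites were in the differential list, beside 18.2% of all sites.

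**Figure D4:**
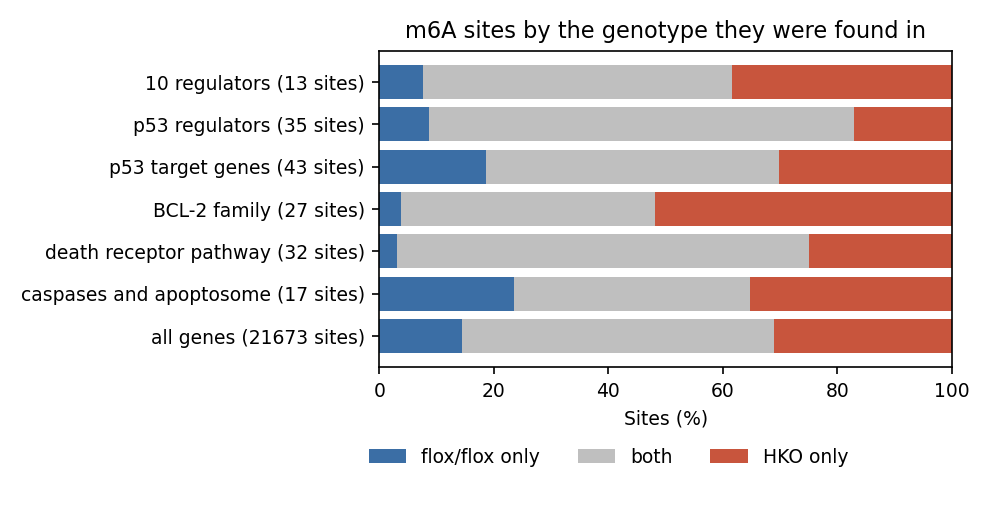
Share of sites (%) found in flox/flox alone (blue), in both genotypes (grey) and in HKO alone (red) for the 10 genes, the 5 lists and all genes, with the number of sites in brackets. The BCL-2 family has the widest red bar (51.9%), beside 31.1% of all genes. Most sites of that bar lie in *Bcl2*, *Bcl2a1a* and *Bcl2a1d*.

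Peaks on markers of liver cell types were counted beside these results. Over all genes, 9020 had a peak in flox/flox livers and 10634 in HKO livers. Of 8 Kupffer cell and leukocyte markers, 3 had a peak in flox/flox livers and 6 in HKO livers, *Cd68*, *Lyz2* and *Ptprc* in the latter alone and *Adgre1* and *Itgam* in neither. Of 6 stellate cell markers, 3 and 5 had one, *Col1a1* and *Dcn* in HKO alone. For hepatocyte markers the numbers were 5 and 5 of 8, with *Cyp2e1* in flox/flox alone, *Ttr* in HKO alone and no peak on *Cps1* or *Serpina1c* in either, and for liver endothelial markers 5 and 5 of 6. Of 5 cholangiocyte markers, 2 and 3 had one. A marker without a called peak may still be expressed, and the lists give no expression. The part of these cells in the peaks of *Fasl*, *Tnf*, *Traf1*, *Bcl2* or any of the 10 genes was not tested.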

How the data were processed

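m6A RIP-seq was done on poly(A)+ liver RNA. Per the labels, fastp 0.19.11, BWA 0.7.12 and HOMER 4.9.1 were used with GRCm38, and peaks were called with exomePeak per the study's methods. The authors deposited 3 peak lists with replicates combined, by a rule not given in the sources used here. Fold enrichment is a ratio of IP over input that the authors deposited, with a library scaling not described. The log10 false discovery rate is a deposited score of the peak caller. The 3 columns of the authors' comparison (fold change, p and false discovery rate between genotypes) were not used, and a direction at a differential peak comes from the 2 genotype lists. Depth is unknown.

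Here, peaks of 1 gene and strand were joined by shared exonic bases, several peaks of a site were averaged by length, and log2 ratios were taken (Python 3.11.15, pandas 2.3.3, numpy 2.4.6, matplotlib 3.10.9). The joining was tested on simulated data, namely the flox/flox list with 1 peak per gene and a copy with peaks left in place or moved away. Partial overlaps and sites with several peaks were not part of that test. Strand comes from the annotation, and whether the kit marks strand is not given in the sources used here. Gene spans, 17 transcript windows of the 10 genes and their sequences are from RefSeq (GRCm38.p6), where all 10 genes matched. Exon and UTR placement was not used here. The genes and the lists were chosen with earlier results of these data known. Beside the 10 genes and *Wtap*, the text names the genes of each list with a differential site, the 2 largest ratios in each direction and the highest site of either genotype alone. *Bcl2a1a*, *Bcl2a1b* and *Bcl2a1d* were named after their values were seen. The result of 1 gene of the lists is not reported here.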

Additional observations from a re-analysis of the deposited data

How the results depend on the processing

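Recomputed were the peak counts, the shared sites, the ratios, the overlap with the differential list and the distance to the 5′ end. Tried were a limit of 0.01 on the false discovery rate, a fold enrichment of at least 2, merged peaks, matching by gene span, 50% overlap of the shorter peak, whole spans, the highest peak of a site, sites with 1 peak per genotype, percentile ranks, subtraction of the median over all shared sites and an edge of 500 nt. Under all of these, counts stayed within 1.5 times their value and log2 ratios kept their sign and stayed within 1.5-fold (for percentile ranks, only the sign was compared). Several of these settings could not move the results. The limits of 0.01 and 2 removed no peak of the set, and the subtracted median was 0.00. The 50% overlap and whole spans gave the same counts and ratios as the main setting. Chosen after seeing the data, a false discovery rate under 1e-20 left 0 sites in Wtap flox/flox alone, without that of *Bcl2l11*, and 3 in Wtap-HKO alone, without 2 of *Bbc3*. It left 6 shared sites, 5 of them lower in Wtap-HKO, since the shared site of *Bcl2l11* was lost too. The distance to transcript starts was added then too. No paired analysis was possible because the lists hold no values per replicate, and no replicate could be left out. Fold enrichment without read counts sets no limit on what could be detected.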
